A study of Rattus norvegicus with 12 samples.

Results

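Dlg1 to Dlg4, Shank1 to Shank3 and Homer1 to Homer3 encode the main scaffold proteins of the excitatory postsynaptic density, and all 10 genes of these 3 families were followed here. They were taken by gene symbol from a table of 26949 genes, and each symbol stood in a single row. Hippocampal RNA came from male rats given 4 weeks of chronic intermittent hypoxia (CIH), in which oxygen falls and recovers over and over as in sleep apnoea, and from male rats kept for 4 weeks in normoxia (control). There were 3 RNA libraries in each group. The labels used here name no strain, age or oxygen cycle. They also do not say which libraries share an animal, so each p-value reflects only how far these libraries scatter, which may be technical.

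The postsynaptic density lies under the membrane of excitatory synapses and holds glutamate receptors against the release site. DLG proteins (membrane-associated guanylate kinases) bind receptors, channels and adhesion molecules through PDZ domains, which grip the tails of membrane proteins. Their guanylate kinase-like domain binds the SAPAP proteins (Dlgap genes). SHANK proteins form the next layer, binding SAPAP through a PDZ domain and HOMER proteins through a proline-rich stretch. HOMER proteins pair through coiled coils and tie SHANK to metabotropic glutamate receptors and to calcium channels of the endoplasmic reticulum. In hippocampal pyramidal and granule cells these layers anchor NMDA and AMPA receptors in dendritic spines.

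The stretch before the annotated start of a gene is shown for Homer1 and Dlg1, because both hold the core letters of the hypoxia response element, to which hypoxia-inducible factors bind. Of the 10 genes, 6 (Dlg1, Dlg2, Dlg4, Shank3, Homer1 and Homer3) were matched to the RefSeq promoter table of the rat assembly GRCr8, and the 250 bases before each start were searched. Capitals mark ACGTG and GCGTG on either strand, so that CACGT and CACGC are the same cores on the other strand. In Dlg1 a core on each strand overlaps to make the palindrome CACGTG.
Homer1, chr2:26278762-26279011, + strand: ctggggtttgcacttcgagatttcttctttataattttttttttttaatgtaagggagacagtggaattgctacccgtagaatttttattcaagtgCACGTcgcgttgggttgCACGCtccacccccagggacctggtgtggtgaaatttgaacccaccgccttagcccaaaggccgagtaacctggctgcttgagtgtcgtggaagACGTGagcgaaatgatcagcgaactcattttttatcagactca
Dlg1, chr11:82607798-82608047, - strand: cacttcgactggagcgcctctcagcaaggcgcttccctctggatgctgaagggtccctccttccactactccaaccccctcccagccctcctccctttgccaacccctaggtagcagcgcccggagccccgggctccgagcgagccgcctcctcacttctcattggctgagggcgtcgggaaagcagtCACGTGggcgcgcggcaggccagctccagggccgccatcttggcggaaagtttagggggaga
Homer1 held 3 cores, at 154, 137 and 43 bases before the start. Dlg1 held 2 overlapping cores at 62 and 61 bases before the start. Dlg4 and Shank3 held 1 each, at 125 and 172 bases, and Dlg2 and Homer3 held 0 in this window. Of all 33469 promoters in the table, 36.7% held ACGTG or GCGTG, 16.6% held ACGTG and 5.59% held CACGTG on either strand. The cyclic AMP response element TGACGTCA was in 0 of the 6 and in 1.59% of all promoters. These matches describe the letters of each window and do not show that a factor binds there.

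All 10 scaffold genes were well expressed, and their levels are set side by side in TPM, a transcript abundance scaled to the library that allows for transcript length. Shank1 was the highest, at 858 ± 132 TPM in CIH libraries and 789 ± 134 TPM in control libraries (SD, n = 3 each), and ranked 124 among all genes by mean TPM. Dlg4, which encodes PSD-95, the most studied DLG protein of the adult synapse, followed at 502 ± 66.8 TPM in CIH and 490 ± 31.1 TPM in control libraries. Dlg2, whose protein PSD-93 is its close relative, stood at 230 ± 13.4 TPM in CIH and 241 ± 13.2 TPM in control libraries. Shank3, whose human counterpart is deleted in Phelan-McDermid syndrome, stood at 162 ± 35.4 TPM in CIH and 156 ± 9.65 TPM in control libraries.

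The other 6 genes lay lower and closer together. Homer3 averaged 124 ± 84.9 TPM in CIH and 103 ± 25.2 TPM in control libraries, and Shank2 averaged 111 ± 15.4 TPM in CIH and 103 ± 17.6 TPM in control libraries. Dlg3, whose protein SAP102 is prominent in young synapses, stood at 93.4 ± 24.3 TPM in CIH and 104 ± 13.5 TPM in control libraries. Homer1, from which neurons also make a short form on activity, stood at 92.6 ± 20.3 TPM in CIH and 86.5 ± 12.6 TPM in control libraries. Dlg1, whose protein SAP97 also serves at junctions of epithelial cells, stood at 61.0 ± 26.0 TPM in CIH and 56.3 ± 6.92 TPM in control libraries. Homer2 was the lowest, at 39.8 ± 6.74 TPM in CIH and 30.7 ± 4.50 TPM in control libraries.

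The upper steps of this order held in every library. Shank1 exceeded Dlg4, Dlg4 exceeded Dlg2 and Dlg2 exceeded Shank3 in 6 of 6 libraries each, with no overlap between the ranges of the 2 genes. Shank3 exceeded Homer3 and Dlg1 exceeded Homer2 in 6 of 6 libraries, although the ranges overlapped. Below Shank3, Homer3 exceeded Shank2 in 4 of 6 libraries, Shank2 exceeded Dlg3 in 3 of 6, Dlg3 exceeded Homer1 in 5 of 6 and Homer1 exceeded Dlg1 in 5 of 6, so these neighbours did not differ beyond their spread.

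**Figure D1:**
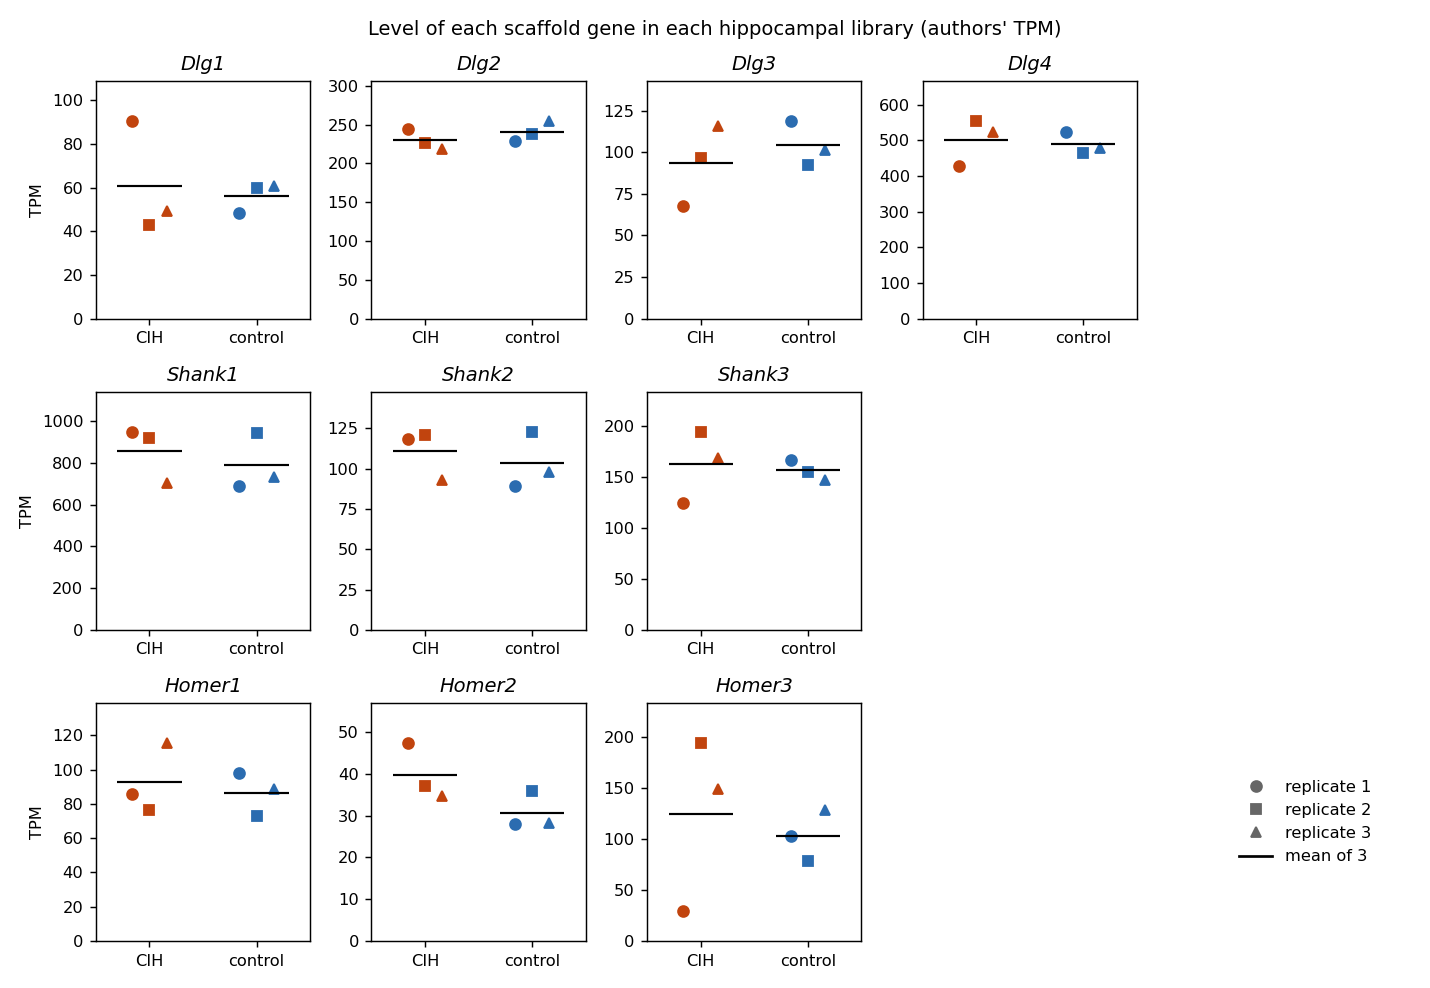
Level of each scaffold gene (vertical axis, TPM made by the authors, from 0) in the 3 CIH libraries (left in each panel) and the 3 control libraries (right); symbols give the replicate number and lines the mean of 3. In every panel the 2 groups overlap, and Homer3 has a single low point of 29.5 TPM in CIH replicate 1.

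The comparison of CIH with control asked whether scaffold transcripts differ after 4 weeks of intermittent hypoxia, and it found no scaffold gene past the threshold. All 10 genes passed the filter on low counts, and 0 of 10 passed the edgeR quasi-likelihood test (adjusted p = 1.00 for each after Benjamini-Hochberg adjustment). Over all 17935 tested genes 0 were called, or 0.00%. At an unadjusted p under 0.05 in this fit there were 0 of the 10 scaffold genes (the lowest was 0.057, for Homer2), against 319 genes or 1.78% of all tested. By DESeq2, 10 genes were called over the whole table, of which 0 were scaffold genes. The CIH and control libraries overlapped for each of the 10 genes, while they did not overlap for 5.70% of all tested genes (3.05% with CIH above and 2.65% with CIH below). The fitted value was above 0 for 8 of the 10 genes, with a median log2 fold change (CIH over control) of 0.09, beside 50.6% of all tested genes and a median of 0.00 (0.0028).

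Homer2, a coiled-coil scaffold that binds group I metabotropic receptors, came nearest to a difference. It stood at 44.5, 36.1 and 32.6 CPM (counts scaled to library size) in CIH replicates 1, 2 and 3, against 26.5, 34.2 and 26.5 CPM in control replicates 1, 2 and 3. CIH replicates 1 and 2 lay above all 3 controls, and control replicate 2 lay above CIH replicate 3. The log2 fold change was 0.38 (SE 0.17, 95% interval -0.02 to 0.77), a fold of 1.30 with an interval of 0.989 to 1.71, with adjusted p = 1.00. It stayed positive with each library left out, from 0.24 without CIH replicate 1 to 0.51 without control replicate 2.

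Homer3, the HOMER gene best known from cerebellar Purkinje cells, varied most. Its level was 17.3, 118 and 82.6 CPM in CIH replicates 1, 2 and 3, against 60.5, 48.4 and 76.2 CPM in control replicates 1, 2 and 3. The lowest and the highest of the 6 libraries were both CIH libraries. CIH replicate 1 held 309 estimated counts (exact Poisson 95% interval 276 to 345, which covers counting error only), against 970 to 1645 in the control libraries. The 6.82-fold range of Homer3 across libraries was narrower than that of 2.98% of tested genes. The log2 fold change of Homer3 was 0.24 (SE 0.60, 95% interval -1.18 to 1.65), and its direction rested on single libraries. It was 0.70 without CIH replicate 1, with both remaining CIH libraries above all controls, and -0.30 without CIH replicate 2. It was also slightly negative in limma on log2 TPM (-0.08 with a pseudocount of 1).

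Homer1, the binding partner of both SHANK and group I metabotropic receptors, overlapped between the groups. It stood at 119, 114 and 146 CPM in CIH replicates 1, 2 and 3, against 140, 103 and 114 CPM in control replicates 1, 2 and 3. CIH replicate 3 and control replicate 1 were the high libraries. The log2 fold change was 0.09 (SE 0.16, 95% interval -0.28 to 0.46), and it was -0.03 without CIH replicate 3 and -0.01 without control replicate 2. Without control replicate 1 it was 0.23, and the groups no longer overlapped.

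Among the SHANK genes, Shank1 and Shank2 shared their high libraries, while Shank3 followed another order. Shank1 stood at 2428, 2488 and 1801 CPM in CIH replicates 1, 2 and 3, against 1822, 2455 and 1886 CPM in control replicates 1, 2 and 3. Shank2 stood at 406, 418 and 319 CPM in the CIH libraries, against 301, 414 and 335 CPM in the controls. For both genes CIH replicates 1 and 2 and control replicate 2 were high and the other 3 libraries low, so the split ran across the groups. Shank3 stood at 447, 740 and 622 CPM in the CIH libraries, against 624, 578 and 536 CPM in the controls, with CIH replicate 1 the lowest and CIH replicate 2 the highest. The log2 fold changes were 0.12 for Shank1 (95% interval -0.34 to 0.59), 0.12 for Shank2 (-0.28 to 0.52) and 0.06 for Shank3 (-0.41 to 0.52). With a library left out, Shank1 ran from 0.04 without CIH replicate 2 to 0.27 without control replicate 2, and Shank2 from 0.03 without control replicate 1 to 0.26 without control replicate 2. Leaving out CIH replicate 1 put Shank3 at 0.23, and leaving out CIH replicate 2 put it at -0.12.

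Among the DLG genes, Dlg2 and Dlg4 had the narrowest intervals of the 10 scaffold genes, and Dlg1 and Dlg3 had wide ones. Dlg2 stood at 630, 581 and 532 CPM in CIH replicates 1, 2 and 3, against 519, 612 and 621 CPM in control replicates 1, 2 and 3. Its log2 fold change of -0.01 (SE 0.13) had a 95% interval of -0.32 to 0.30, or a fold of 0.801 to 1.23, and its direction turned without CIH replicate 3 or without control replicate 2 or 3. Dlg4 stood at 668, 884 and 819 CPM in the CIH libraries, against 826, 739 and 732 CPM in the controls. CIH replicate 1 was the lowest of the 6 and CIH replicate 2 the highest. The log2 fold change of Dlg4 was 0.05 (SE 0.15, 95% interval -0.30 to 0.39), a fold of 0.811 to 1.31, and -0.04 without CIH replicate 2.

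Dlg3 and Dlg1 lay at opposite ends in CIH replicate 1. Dlg3 stood at 153, 226 and 264 CPM in CIH replicates 1, 2 and 3, against 270, 210 and 229 CPM in control replicates 1, 2 and 3. Dlg1 stood at 91.9, 48.0 and 47.6 CPM in the CIH libraries, against 50.0, 65.6 and 61.6 CPM in the controls. CIH replicate 1 was the lowest library for Dlg3 and the highest for Dlg1. The log2 fold changes were -0.14 for Dlg3 (95% interval -0.65 to 0.36) and 0.08 for Dlg1 (95% interval -0.57 to 0.73). Without CIH replicate 1 they were 0.05 for Dlg3 and -0.31 for Dlg1, and Dlg1 stood at -0.02 without control replicate 1.

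**Figure D2:**
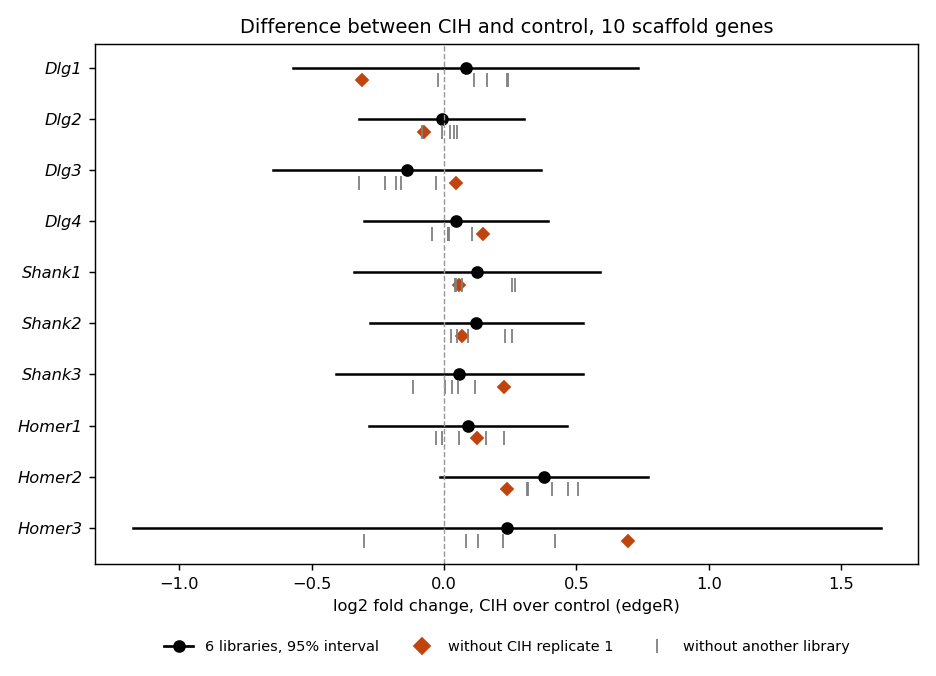
Log2 fold change of CIH over control (horizontal axis, edgeR) for each scaffold gene, with its 95% interval from 6 libraries (black) and the value with each library left out (marks below; orange diamonds leave out CIH replicate 1). All 10 intervals include 0, and the Homer3 interval, from -1.18 to 1.65, is the widest.

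CIH replicate 1 was often at an extreme, both in these genes and over the whole table. It was the highest library for 3 of the 10 (Dlg1, Dlg2 and Homer2) and the lowest for 4 (Dlg3, Dlg4, Shank3 and Homer3), or 7 of 10 in all. Over all tested genes it was the highest or lowest for 51.3%, against 26.6% to 32.5% for the other 5 libraries. CIH replicate 2 was the highest library for 5 of the 10 and the lowest for 0, beside 14.8% and 15.5% of all tested genes. Leaving out CIH replicate 1 ended the overlap between the groups for 2 of the 10 genes, Dlg1 and Homer3, beside 14.3% of all tested genes, and 0 passed the test. With each of the other 5 libraries left out, 0 or 1 of the 10 no longer overlapped, beside 9.79% to 22.4% of all tested genes; the gene was Homer2 without CIH replicate 3 or control replicate 2, and Homer1 without control replicate 1.

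Markers of some hippocampal fields and of neighbouring tissue also lay at an extreme in CIH replicate 1. Markers of dentate granule cells (7 of 8 tested, without Tdo2, which had at most 1 count per library) summed to 297 CPM in CIH replicate 1 and to 636 and 1005 CPM in the other CIH libraries, against 549 to 1213 CPM in control libraries. Prox1, the defining transcription factor of granule cells, stood at 28.9 CPM in CIH replicate 1, against 108 to 420 CPM in the other 5 libraries. Markers of CA3 and CA2 pyramidal cells (8 of 9 tested, without Iyd) summed to 250, 699 and 568 CPM in CIH replicates 1, 2 and 3, against 560, 412 and 581 CPM in control replicates 1, 2 and 3. The order of Homer3 over the 6 libraries was that of this sum, except that CIH replicate 3 and control replicate 3 changed places. This match was picked after the values of all genes and lists were seen. Coch, a member of that list, went the other way and was highest in CIH replicate 1, at 18.6 CPM. Markers of CA1 pyramidal cells (6 of 6 tested) were not at an extreme there, at 975 CPM in CIH replicate 1 and 1026 and 1197 CPM in the other CIH libraries, against 583 to 1254 CPM in control libraries. Cortical layer markers (9 of 9 tested) summed to 608 CPM in CIH replicate 1 and to 327 and 342 CPM in the other CIH libraries, against 310 to 396 CPM in control libraries. Markers of striatum (7 of 7 tested) and of blood vessels (8 of 8 tested) were also highest in CIH replicate 1, at 231 and 376 CPM, beside 145 to 188 and 257 to 297 CPM in the other 5 libraries. Oligodendrocyte markers (8 of 8 tested) split the libraries another way, at 4903, 5357 and 7551 CPM in CIH replicates 1, 2 and 3, against 7471, 3108 and 3076 CPM in control replicates 1, 2 and 3. CIH replicate 3 and control replicate 1, which hold the highest oligodendrocyte and dentate sums, were also the highest libraries for Homer1 and Dlg3. No marker of these lists was at 0 in all 6 libraries. Pan-neuronal markers (10 of 10 tested) summed to 6606 to 7965 CPM in CIH and 6586 to 7004 CPM in control libraries. In bulk tissue, fewer cells of a type and less RNA per cell cannot be told apart, and the part of these markers in the scaffold values was not tested.

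**Figure D3:**
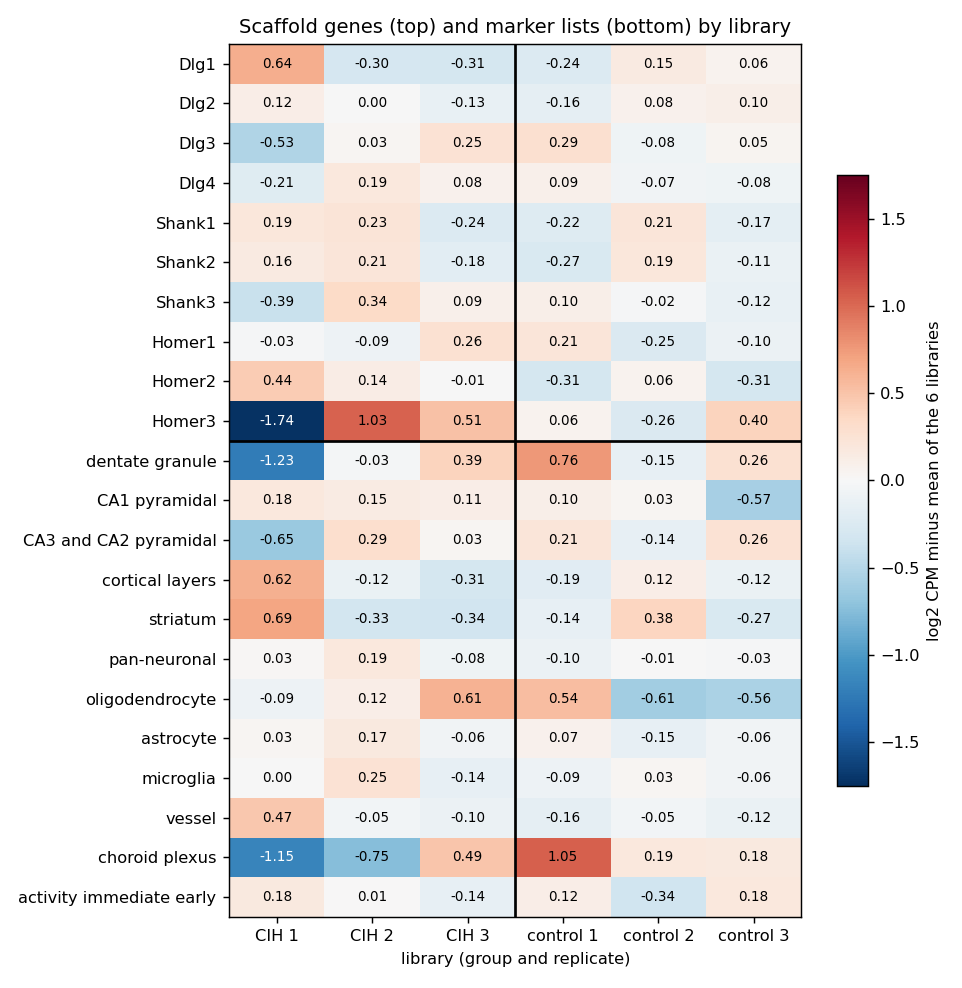
Centred log2 CPM (colour and printed value, the level in a library minus the mean of the 6 libraries) of the 10 scaffold genes (upper rows) and mean of each marker list (lower rows) in CIH and control libraries. In CIH replicate 1 Homer3 stands at -1.74, the dentate granule list at -1.23 and the CA3 and CA2 list at -0.65, while Dlg1 stands at 0.64 and the cortical list at 0.62.

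Within each family, the make-up by TPM was set by 1 or 2 genes. Dlg4 held 56.5% ± 4.55 of the DLG sum in CIH and 54.9% ± 1.83 in control libraries (SD, n = 3 each), and Dlg2 held 26.0% ± 2.98 in CIH and 27.0% ± 1.91 in control libraries. Shank1 held 75.7% ± 3.51 of the SHANK sum in CIH and 75.1% ± 2.09 in control libraries. Shank2 kept a nearly fixed part, between 9.40% and 10.1% in the 6 libraries. The HOMER family was the most variable. Homer3 held 18.1%, 63.0% and 49.7% of its sum in CIH replicates 1, 2 and 3, against 44.9%, 41.8% and 52.3% in control replicates 1, 2 and 3. Homer1 held 52.7%, 24.9% and 38.7% in the CIH libraries, against 42.9%, 39.0% and 36.2% in the controls. The groups overlapped for the share of each of the 10 genes. Summed TPM over the HOMER genes was 163, 308 and 299 in the CIH libraries, against 228, 187 and 246 in the controls, while the DLG sum was 830 to 921 in CIH and 856 to 922 in control libraries.

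**Figure D4:**
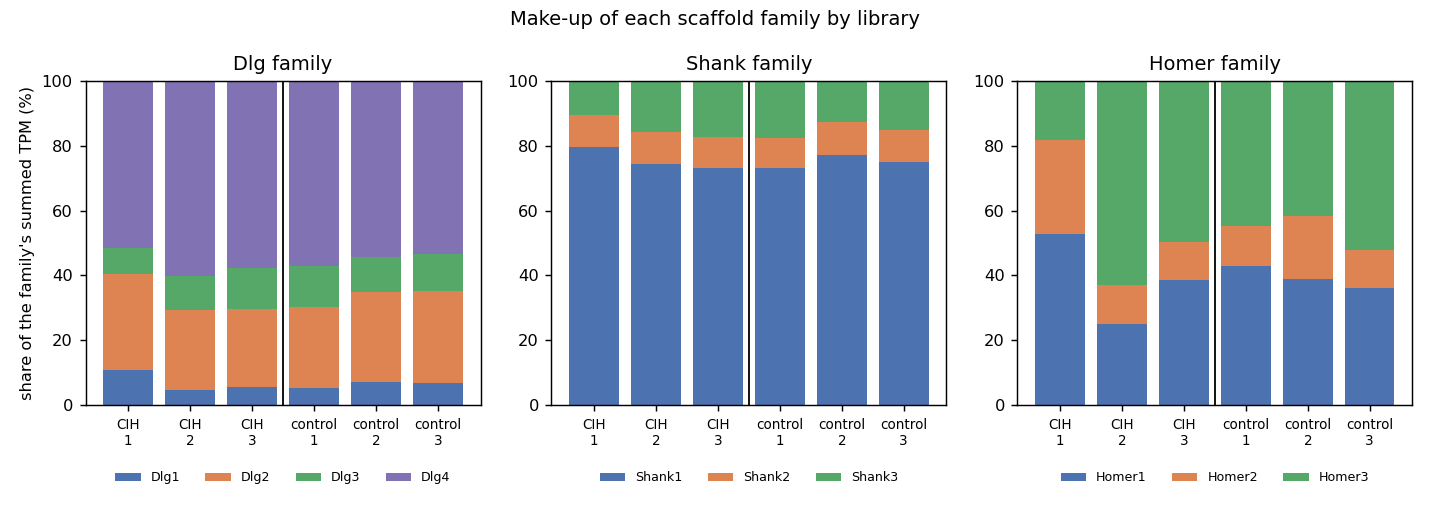
Share of each family's summed TPM (vertical axis, percent, from 0 to 100) held by each gene in the CIH libraries (left of the line) and control libraries (right). Shank1 holds 73.0% to 79.7% of the SHANK sum in all 6 libraries, and the Homer3 share runs from 18.1% in CIH replicate 1 to 63.0% in CIH replicate 2.

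The deposited counts and TPM also give, for each gene and library, the transcript length by which the authors' counts were scaled, an average over the gene's transcripts weighted by their estimated abundance. This implied length moves when the estimated mix of long and short transcripts moves, as it would with the short activity-induced form of Homer1. The RefSeq table lists 3 transcripts for Homer1, 4 for Homer2, 31 for Dlg1 and 36 for Dlg2, although the labels do not name the annotation the authors used. Homer1 had implied lengths of 2611, 2702 and 2367 bases in CIH replicates 1, 2 and 3, against 2648, 2600 and 2415 bases in control replicates 1, 2 and 3. The short values were those of 1 CIH and 1 control library, both replicate 3, and the groups overlapped. The log2 difference was 0.00 (0.00069, 95% interval -0.18 to 0.18).

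The implied lengths of the other scaffold genes also overlapped between the groups. Dlg1 and Dlg2 varied about as widely as Homer1, with the longest value 1.13 and 1.15 times the shortest, against 1.14 times for Homer1. Dlg2 was shortest in control replicate 1, at 4179 bases, against 4568 to 4822 bases in the CIH libraries and 4602 and 4755 bases in the other controls. Homer2 was the steadiest, at 1758 to 1763 bases in CIH and 1754 to 1768 bases in control libraries, and 97.3% of genes with an implied length varied more. In limma over 17110 genes with a mean TPM of at least 1, 0 of the 10 scaffold genes and 0.00% of all genes passed (adjusted p = 1.00 for each scaffold gene), with 0 of 10 and 3.00% at an unadjusted p under 0.05. With library medians aligned, implied lengths of the groups did not overlap for 5.24% of all genes. The overlap of the scaffold genes was read from the lengths before that alignment.

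**Figure D5:**
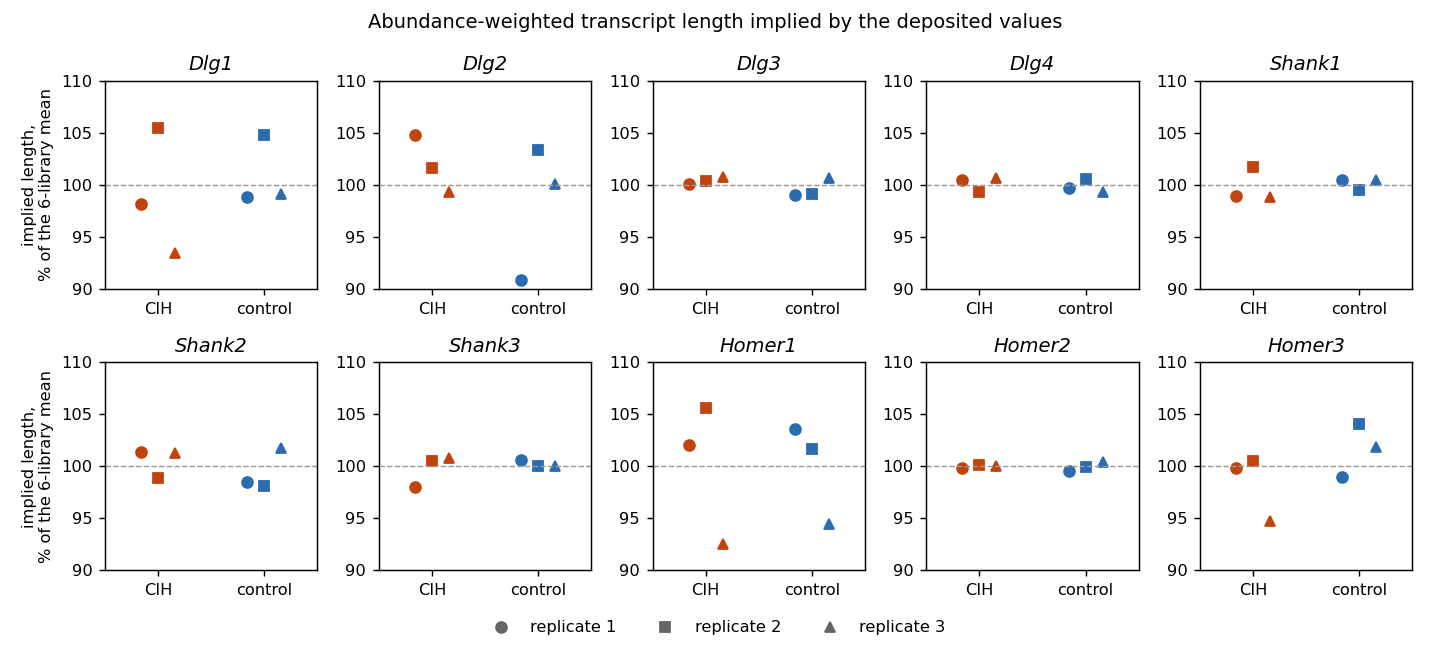
Implied transcript length of each scaffold gene (vertical axis, percent of its mean over 6 libraries) in the 3 CIH libraries (left) and 3 control libraries (right), with symbols for the replicate number. Homer1 is shortest in replicate 3 of both groups (2367 bases in CIH and 2415 bases in control), and Homer2 hardly varies.

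Genes whose products bind the scaffolds were read from lists chosen with earlier results of these data known. In each of these lists 0 genes passed the edgeR test in either direction, and 0 had an unadjusted p under 0.05, beside 1.78% of all tested genes. Of 31 DLG partners 16 had a fitted value above 0, with a median log2 fold change of 0.01. Those with the smallest p were Cacng3, an auxiliary subunit of AMPA receptors, at 0.40 (SE 0.26), the synaptic adhesion gene Lrfn2 at -0.25 (SE 0.17) and Kcnj10, the astrocytic potassium channel Kir4.1, at 0.17 (SE 0.12). Without control replicate 1 Cacng3 stood at 0.68 and Lrfn2 at -0.40. Cacng2, which encodes the auxiliary AMPA receptor subunit stargazin, was the single one of the 31 DLG partners whose groups did not overlap. The share over all tested genes was 5.70%, and Cacng2 was chosen after its values were seen. It stood at 35.9, 38.0 and 37.8 CPM in CIH replicates 1, 2 and 3, against 35.9, 32.0 and 33.7 CPM in control replicates 1, 2 and 3, with 35.872 CPM in the lowest CIH library and 35.868 CPM in the highest control. Its log2 fold change was 0.14 (SE 0.10).

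Of 17 SHANK partners 11 lay above 0, with a median of 0.01. The actin-binding gene Dbnl stood at -0.23 (SE 0.19) and the somatostatin receptor gene Sstr2 at 0.26 (SE 0.27). Of 15 HOMER ligands 8 lay above 0, with a median of 0.04, and this list holds the 3 Shank genes themselves. The cation channel gene Trpc1 stood at 0.15 (SE 0.10) and the inositol trisphosphate receptor gene Itpr3 at 0.53 (SE 0.38). Grm5, the main group I metabotropic receptor of hippocampal pyramidal cells, stood at -0.09 (SE 0.16), with 236, 350 and 318 CPM in CIH replicates 1, 2 and 3, against 313, 320 and 331 CPM in control replicates 1, 2 and 3. CIH replicate 1 was again the low library, and without it Grm5 stood at 0.05. Sstr2 (-0.05) and Itpr3 (-0.06) also turned direction without CIH replicate 1.

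Of 20 other synaptic scaffolds 12 lay above 0, with a median of 0.01. The AMPA receptor-binding scaffold gene Grip1 stood at -0.24 (SE 0.15), Tanc2 at 0.17 (SE 0.13) and Anks1b at 0.15 (SE 0.12), the last pair being postsynaptic scaffold genes with ankyrin repeats. Grip1 stood at -0.40 without CIH replicate 2, and Tanc2 at 0.05 without CIH replicate 1. Of 12 immediate early genes, among which Homer1 is often counted for its short form, 5 lay above 0, with a median of -0.06. Egr2 stood at -0.12 (SE 0.14), Npas4 at 0.23 (SE 0.30) and Fos at 0.34 (SE 0.52), all transcription factors induced by neuronal activity. Fos stood at -0.38 without CIH replicate 1, and Npas4 at -0.04 without control replicate 3. The list summed to 492, 514 and 518 CPM in CIH replicates 1, 2 and 3, against 617, 353 and 505 CPM in control replicates 1, 2 and 3. Control replicate 2 was the lowest library both for this sum and for Homer1.

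The genes with profiles most like the mean of the 10 scaffold genes over the 6 libraries were Lonp2, Socs7, Thoc5, Polr3d and B3gat3. Their root mean square differences from that mean were 0.014, 0.021, 0.022, 0.024 and 0.030 log2 units, the smallest among 11144 genes with a mean log2 CPM above 3. The scaffold mean was itself nearly flat, at -0.14, 0.18 and 0.03 in CIH replicates 1, 2 and 3, against -0.05, 0.00 (0.0017) and -0.03 in control replicates 1, 2 and 3.

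The libraries held between 17170943 and 21941173 estimated counts in all, and each scaffold gene had at least 309 estimated counts in every library. Every pair of libraries differed by more than counting error, the closest pair, CIH replicate 3 and control replicate 1, having a chi-square over its degrees of freedom of 6.67. By position in the RefSeq table, a protein-coding gene overlaps Homer3 (Ddx49), Shank3 (Acr), Shank1, Shank2 and Dlg2, and the labels do not say whether counting used strand. Ddx49 stood at 16.4 to 17.4 CPM in CIH and 16.9 to 19.6 CPM in control libraries, and Acr at no more than 26 counts per library.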

How the data were processed

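The 6 RNA libraries of rat hippocampus were used, and the small RNA libraries were not used here. The authors deposited estimated counts, TPM and FPKM per gene, per the file headers. The submitters' processing notes list the build Rnor_6.0 and the tools Bowtie2 2.2.5, RSEM 1.2.12 and HISAT2 2.2.0 without saying what each did; the annotation is not named in the sources used here. Estimated counts, 16.0% of them not whole, were rounded. In R 4.3.3, genes passing filterByExpr were scaled by TMM and tested by the quasi-likelihood method of edgeR 4.0.16, with p-values adjusted over all of them (Benjamini-Hochberg, threshold 0.05). CPM values use TMM-adjusted totals, and each SE was derived from the log2 fold change and F. Implied length is the estimated count over the authors' TPM, scaled by each library's total and summed FPKM; library medians were aligned before testing with limma 3.58.1 (robust), since fragment length also moves it. Alternatives were RLE, no filter, DESeq2 1.42.0, limma on log2 TPM, a replicate block and leaving out each library. Both tests were checked on simulated data. Named partners are the 3 genes of each list with the smallest p, of which 1 SHANK partner is not reported here, and the profile genes were chosen by smallest difference. The scaffold genes and all lists were chosen with earlier results of these data known, and overlap with libraries left out was counted after seeing the data. Likenesses between list sums and single scaffold genes were also picked after seeing the data. Figures used matplotlib 3.10.9 in Python 3.11.15.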

Additional observations from a re-analysis of the deposited data

How the results depend on the processing

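With each library left out in turn, 0 scaffold genes were called, and over all genes edgeR called 0 to 1 genes and limma 0 to 2 implied lengths. DESeq2 called 10 genes and limma on log2 TPM called 1 with a pseudocount of 1 and 1 with 0.1, none of them a scaffold gene. RLE scaling, no filter and limma on log2 TPM without a filter called 0. The replicate block called 0 genes and 0 implied lengths. Same-numbered CIH and control libraries did not deviate together in expression (r = -0.222, -0.0457 and -0.176 across genes). Some differently numbered libraries did, with r = 0.446 for CIH replicate 3 and control replicate 1. It was 0.335 for CIH replicate 1 and control replicate 2, and 0.262 for CIH replicate 2 and control replicate 3. The remaining pairs had negative values, down to -0.387 for CIH replicate 3 and control replicate 2. No label says that libraries pair. These values rest on 3 libraries per group, and a batch shared by same-numbered libraries was not tested. Homer3 stood at -0.10 with the block, -0.084 in limma on log2(TPM + 1) with or without a filter and -0.091 on log2(TPM + 0.1). The implied length of Homer2 differed by 0.00020 at a minimum mean TPM of 5. Log2 fold changes that changed sign with a library left out ranged from -0.31 to 0.24 for Dlg1, -0.085 to 0.048 for Dlg2, -0.32 to 0.047 for Dlg3, -0.044 to 0.15 for Dlg4, -0.12 to 0.23 for Shank3, -0.029 to 0.23 for Homer1 and -0.30 to 0.70 for Homer3. Among partners they ranged from -0.050 to 0.51 for Sstr2, -0.058 to 0.77 for Itpr3, -0.22 to 0.051 for Grm5, -0.035 to 0.54 for Npas4 and -0.38 to 0.75 for Fos. Implied lengths did so for Dlg1 (-0.079 to 0.012), Dlg4 (-0.0054 to 0.0096), Homer1 (-0.043 to 0.057), Homer2 (-0.0040 to 0.00027), Shank1 (-0.022 to 0.0020) and Shank3 (-0.015 to 0.0040). Without a change of sign, values ranged from 0.04 to 0.27 for Shank1, 0.03 to 0.26 for Shank2, 0.24 to 0.68 for Cacng3, -0.40 to -0.16 for Lrfn2, 0.09 to 0.22 for Kcnj10, -0.40 to -0.10 for Dbnl, -0.40 to -0.16 for Grip1, 0.05 to 0.23 for Tanc2 and -0.24 to -0.01 for Egr2. The cause of these changes was not tested. The printed 95% intervals are not adjusted for the number of genes and are not limits of detection, since 319 genes at an unadjusted p under 0.05 gave 0 calls by edgeR. The lowest scaffold value was 309 estimated counts, whose counting interval of 276 to 345 is narrow beside the spread of Homer3 between libraries.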
